A study of Mus musculus with 27 samples.

Results

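The early activation response of lin28Tg CD8 T cells was measured as the difference between lin28Tg P14 cells activated for 12 h and naive lin28Tg P14 cells, with 3 libraries on each side. The 6 libraries were taken by their labels out of 27 in the study, genes were joined across the deposited tables by gene identifier, and no gene was chosen by its response. Of 35275 genes in the tables, 13874 had enough reads to be tested, which meant an FPKM worth 10 reads at median depth in 3 or more of the 18 naive and 12 h libraries and 15 reads in all.

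The study sequenced RNA of P14 CD8 T cells, whose transgenic T cell receptor recognises gp33, a peptide of LCMV, from WT, lin28Tg and let-7Tg mice as naive cells, after 12 h of activation and as day 5 cytotoxic T lymphocytes (CTLs), with 3 replicates per genotype and stage. The lin28Tg mice (genotype Lin28bTg P14+ in the labels) carry a Lin28b transgene, and in let-7Tg mice doxycycline turns on a let-7g transgene. Mice were on the C57BL/6 strain, of both sexes and 6 to 10 weeks old, and the P14 lin28Tg and P14 let-7Tg lines were kept without a functional Rag2 gene. All mice, WT controls included, drank water with 2 mg/ml doxycycline and 10 mg/ml sucrose before cells were taken. Naive cells came from lymph nodes without further treatment, and 12 h cells were cultured with anti-CD3 antibody at 2 μg/ml, anti-CD28 antibody at 5 μg/ml and doxycycline at 2 μg/ml. The 12 h cells of every genotype were thus stimulated, cultured and kept in doxycycline together, and the effects of these cannot be told apart. The study notes that the lin28 transgene is already expressed in the thymus, and the promoter that drives it is not given in the sources used here.

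Lin28 proteins are RNA-binding proteins that hold back the maturation of let-7 microRNAs from their precursors. Mature let-7 pairs through its seed with sites in the 3′ untranslated regions of messenger RNAs and lowers their level and translation, and naive T cells express let-7 and reduce it once their receptor is engaged. Within hours of engagement a CD8 T cell switches on immediate early transcription factors, cytokines and chemokines, builds ribosomes and proteasomes, takes up amino acids and glucose, and loses the transcription factors and receptors of the quiescent, recirculating state, all before it first divides. The libraries here held messenger RNA, so mature let-7 itself was not measured.

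The seed is what all members of the family share, and it is shown here because it defines the sites described at the end. In the RefSeq entries on GRCm38.p6, 9 of 9 mature sequences looked for (let-7a to let-7g, let-7i and miR-98, all 5p arms) were found, and all 9 carried the same bases at positions 2 to 8, printed in capitals.
let-7a-5p: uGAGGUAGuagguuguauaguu
let-7g-5p: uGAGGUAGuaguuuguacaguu
miR-98-5p: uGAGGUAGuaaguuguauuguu

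Values in single libraries are FPKM (fragments per kilobase of gene, relative to library size) after scaling between libraries, given in the order of replicates 1, 2 and 3. Log2 fold changes are differences of means of log2(scaled FPKM + 0.5), which understates the change of genes near 0, with the standard error (SE) of a limma model fitted to all 18 naive and 12 h libraries and with p values adjusted by Benjamini-Hochberg over the 13874 genes. A gene was called when its adjusted p was under 0.05, and "rose" and "fell" are used of called genes alone. Of the named responses in lin28Tg cells and differences in response, 211 were also computed under alternatives of scaling, pseudocount, filter and fit and without single libraries. Where an alternative changed whether such a gene was called the range of adjusted p is given. Other values were not varied, among them the fall of Txnip and levels at 1 stage against WT. For those the lack of a range does not speak to stability. The labels give replicates without saying whether they were separate animals, so the p values measure the spread between these libraries.

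The transgene's RNA was measured first. Lin28b (ENSMUSG00000063804, chr10:45376620-45486395 on GRCm38) stood at 63.7, 52.9 and 59.9 in the naive lin28Tg libraries and at 13.2, 10.97 and 10.7 in the 12 h lin28Tg libraries. In the 6 WT libraries it lay between 0 and 0.0664. Every lin28Tg library was far above every WT library, and within the lin28Tg cells the 12 h values lay below all naive values, with a log2 fold change of -2.29 ± 0.12 (SE, n = 3 a side, adjusted p = 4.37e-11). The RNA of the transgene was therefore still present at 12 h, 4.51 log2 units above WT, and 6.84 log2 units above WT in naive cells. Lin28a was not tested, with 0.131, 0.0982 and 0.093 in naive cells and 0 in all 3 12 h libraries.

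Activation moved most of the transcriptome. Of the 13874 genes, 4934 rose (35.6%) and 5676 fell (40.9%). With a fold of at least 2 required as well, 2173 rose (15.7%) and 3029 fell (21.8%). The values of the naive and 12 h libraries did not overlap in 10973 genes (79.1%). The median log2 fold change over all genes was -0.081 after scaling and -0.247 without scaling between libraries, and changes are given relative to the scaled median. Counts of gene groups are read against these shares.

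Depth was similar in the lin28Tg libraries, with 16037360 to 23590750 counted reads in naive cells and 15757118 to 17149753 in 12 h cells. The CD8 T cell markers were present in all of them, with a summed level of 3337 to 3675 in naive and 1865 to 2206 in 12 h libraries, and 6 of 8 of them fell. RNA of marker genes of other cells was also present and moved with the comparison. The summed level of 19 myeloid and dendritic markers was 694 to 2221 in naive lin28Tg libraries, highest in replicate 2, against 161 to 255 at 12 h, and 205 to 315 in naive WT cells. Of the 18 myeloid markers tested, 17 fell and 18 were higher in naive lin28Tg than in naive WT cells. Summed erythroid and platelet markers were 454 to 1879 in naive and 92.2 to 731 in 12 h lin28Tg libraries, with 5 of 6 falling, NK cell markers 86.3 to 143 and 42.8 to 61.1, with 6 of 8 falling, and stromal markers 46.7 to 73.2 and 4.93 to 7.78, with 8 of 9 falling. B cell markers lay between 341 and 424 in naive and between 91.1 and 114 in 12 h lin28Tg libraries, with 5 of 5 falling, and between 394 and 426 in naive WT cells. CD4 T cell markers stood at 22.6 to 78.3 in naive and 7.30 to 8.81 in 12 h lin28Tg libraries, with 2 of 4 falling and 1 rising, against 12.2 to 22.4 in naive WT cells. Single genes made up much of some sums in lin28Tg libraries. Ighm was 86.4% to 90.5% of the B cell sum in naive and 95.4% to 96% in 12 h cells. Pecam1 was 49.3% to 76.8% and 72% to 83.1% of the stromal sum, and Eomes 26.1% to 54.2% and 64.2% to 78.2% of the NK cell sum. Cst3 was 30.4% to 51.7% and 78.4% to 85.8% of the myeloid sum. In bulk RNA, fewer cells of a type and less RNA of that type per cell cannot be told apart. The part of these cells in results for T cell genes was not tested beyond a fit that adds the myeloid marker level of each library as a term, whose counts are given here for marker lists and below for the other lists in which a count of 5 or more moved at least 1.5 times. That level did not overlap between naive and 12 h lin28Tg libraries, so the term also takes up part of the change with activation. A call lost, gained or reversed in that fit therefore does not assign a cause. In that fit 9 of the 18 myeloid markers fell and 2 rose, though the term is made from that list. Falls were called in 0 of 6 erythroid and platelet, 0 of 8 NK cell, 4 of 9 stromal and 2 of 5 B cell markers. Of 4 CD4 T cell markers 0 fell and 0 rose, and of 8 CD8 T cell markers 6 fell and 1 rose. Each naive lin28Tg library also held both Xist, at 66.8, 108 and 61.8, and the Y-linked Ddx3y, at 27.1, 12.2 and 33.9, so that RNA of both sexes was present in each, while at 12 h Xist was at 0.117, 0.0204 and 121 and Ddx3y at 31.7, 33.5 and 16.2. No sex-linked gene of 5 tested was called in lin28Tg cells, but Xist was called lower without 12 h replicate 3 and with the myeloid marker level as a term (adjusted p from 0.0114 to 0.3 over its alternatives). In WT and in let-7Tg cells 2 of the same 5 genes rose and 1 fell, each at least 2-fold. The response of 0 of them was called different between lin28Tg and WT cells, although the median difference was -3.28.

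**Figure D1:**
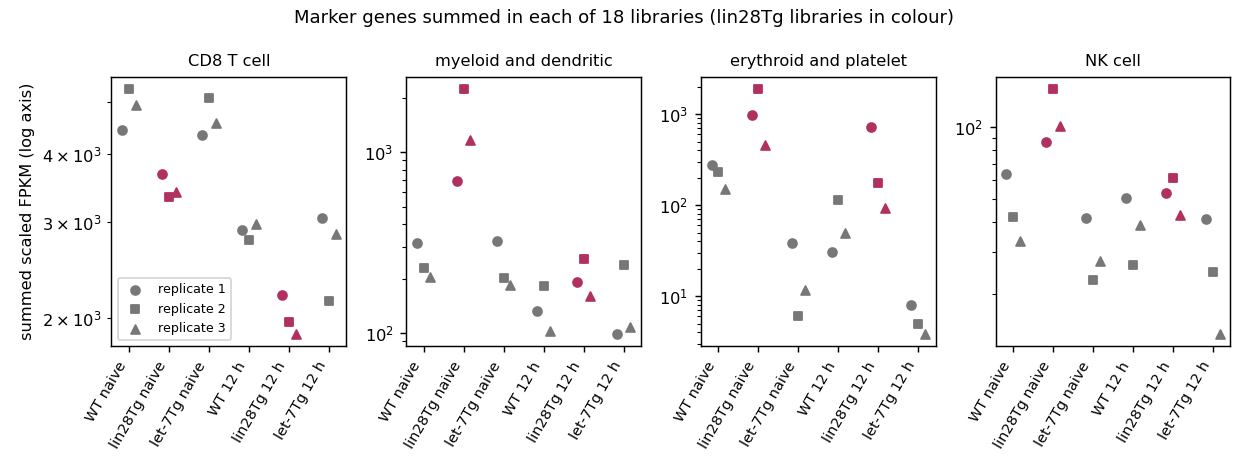
Summed scaled FPKM (log axis) of 4 marker lists in each of 18 libraries, with lin28Tg libraries in colour and replicates as symbols. The myeloid and dendritic sum was 694 to 2221 in naive lin28Tg libraries and 161 to 255 in lin28Tg libraries at 12 h.

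Immediate early and receptor-induced transcription factors rose broadly. Of 30 members tested, 26 rose and 0 fell, 22 of them at least 2-fold, and the median log2 fold change was 1.98. Irf4, a factor whose level follows the strength of receptor signaling, stood at 2.48, 3.09 and 3.27 in naive and 174, 181 and 213 in 12 h cells (5.78 ± 0.12, adjusted p = 1.13e-14). The 2 sets of values did not overlap. Nr4a2, an orphan nuclear receptor induced by the T cell receptor, went from 1.45, 2.18 and 1.82 to 117, 98.3 and 86.3 (5.45 ± 0.27). Its relatives Nr4a3 and Nr4a1 rose by 4.29 and 3.99. The zinc finger factor Egr2 went from 5.004, 6.25 and 4.80 to 111, 76.4 and 84.7 (3.95). Myc, which drives growth and ribosome production, was well expressed before activation and rose to about the same level in each library, from 75.8, 83.2 and 65.5 to 743, 723 and 766 (3.31 ± 0.10, adjusted p = 1.65e-13). The NF-κB subunit Rel rose by 2.60. Fos and Batf, partners in AP-1 complexes, were not called at 12 h. Fos was at 2.33, 11.47 and 5.12 in naive and 13.7, 8.15 and 9.01 in 12 h cells (adjusted p = 0.103). Batf was at 33.8, 35.3 and 26.4 and 24.3, 32.9 and 45.6 (adjusted p = 0.788), and the values of both overlapped between the groups. Fos was called higher without naive replicate 2 (adjusted p from 2.27e-04 to 0.495 over its alternatives).

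Most cytokine genes rose, several of them from near 0. Of 17 cytokine and Fas ligand genes tested, 15 rose and 2 fell, with a median of 2.92. Ifng, the interferon of activated CD8 T cells (chr10:118441046-118445892), was at 1.67, 3.62 and 2.11 in naive and 1375, 1794 and 1584 in 12 h cells (9.11 ± 0.44, adjusted p = 2.03e-11). Il2, the autocrine growth factor (chr3:37120523-37125959), was at 0.0925, 0.382 and 0.0988 in naive and 72.0, 78.0 and 158 in 12 h cells, highest in replicate 3 (7.15 ± 0.36, adjusted p = 2.69e-11). Every 12 h value of both genes exceeded every naive value. Il3, a growth factor for blood precursor cells, had 1 read in the 3 naive libraries together and 3341 reads in the 3 libraries at 12 h, a ratio per depth of 4419 with a counting interval from 793 to 174578, at levels of 113, 106 and 121 (7.75 ± 0.34, adjusted p = 5.65e-12). The width of that interval is set by the single naive read. Csf2, which codes for GM-CSF, was at 0.132, 0.696 and 0.141 and 7.16, 10.6 and 10.03 (3.62 ± 0.29). Tumour necrosis factor genes were expressed before activation. Tnf went from 10.95, 15.4 and 12.1 to 148, 96.6 and 138 (3.26), and Lta, lymphotoxin alpha, from 9.30, 12.6 and 11.1 to 193, 187 and 179 (4.03). Tnfsf11, the ligand RANKL, rose by 5.17, and Fasl, the death ligand of cytotoxic cells, by 1.56, from 1.39, 2.86 and 1.93 to 8.26, 7.92 and 4.83.

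Chemokines made by activated CD8 T cells rose from low to high levels. Of 7 chemokine genes tested, 5 rose and 1 fell, with a median of 4.43. Ccl3, a ligand of the receptor CCR1 (chr11:83647844-83649355), was at 0.553, 3.32 and 4.21 in naive and 2852, 2292 and 2044 in 12 h cells (9.80 ± 0.59, adjusted p = 2.86e-10). Xcl1, which attracts cross-presenting dendritic cells, was at 7.79, 29.8 and 12.2 and 5397, 4912 and 3574 (8.27 ± 0.57, adjusted p = 1.31e-09), and Ccl4 at 1.20, 3.61 and 3.77 and 1537, 1092 and 1297 (8.71). Naive values of the 3 genes varied several-fold between replicates, but all lay far below the 12 h values. Ccl5, a chemokine that memory cells store as RNA, went the other way, from 236, 350.2 and 257 to 46.4, 47.8 and 35.6 (-2.68 ± 0.43, adjusted p = 2.85e-05). With the myeloid marker level as a term its change was -0.09 and it was not called (adjusted p from 1.18e-06 to 0.879 over its alternatives).

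Among cytotoxic granule genes the direction was mixed, with 7 of 11 rising and 4 falling. Gzmb, the granzyme of effector cells (chr14:56258838-56262260), went from 7.39, 19.5 and 12.2 to 836, 1789 and 1838, with replicate 1 below the other 2 at 12 h (6.796 ± 0.61, adjusted p = 3.90e-08). Prf1, the pore-forming perforin, rose from 31.8, 34.6 and 27.1 to 185, 167 and 109 (2.25 ± 0.24), and Srgn, the proteoglycan that packs granules, from 221, 272 and 226 to 651, 631 and 638 (1.42). Gzma fell from 48.6, 131 and 80.2 to 9.11, 19.8 and 9.35 (-2.69 ± 0.37, adjusted p = 5.84e-06), and the protease gene Ctsw from 434, 378 and 395 to 59.1, 55.5 and 45.4 (-2.91). Granzyme genes lie in clusters of similar sequence, so that reads could have been split between Gzmc and its neighbours. Gzmc was at 13.4, 24.5 and 6.72 and 31.3, 54.5 and 39.4 (1.598, adjusted p = 0.00894) and was not called without naive replicate 3 (adjusted p from 3.05e-04 to 0.0567 over its alternatives). With the myeloid marker level as a term Gzma changed by -0.68 and was not called (adjusted p from 2.51e-06 to 0.266 over its alternatives).

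**Figure D2:**
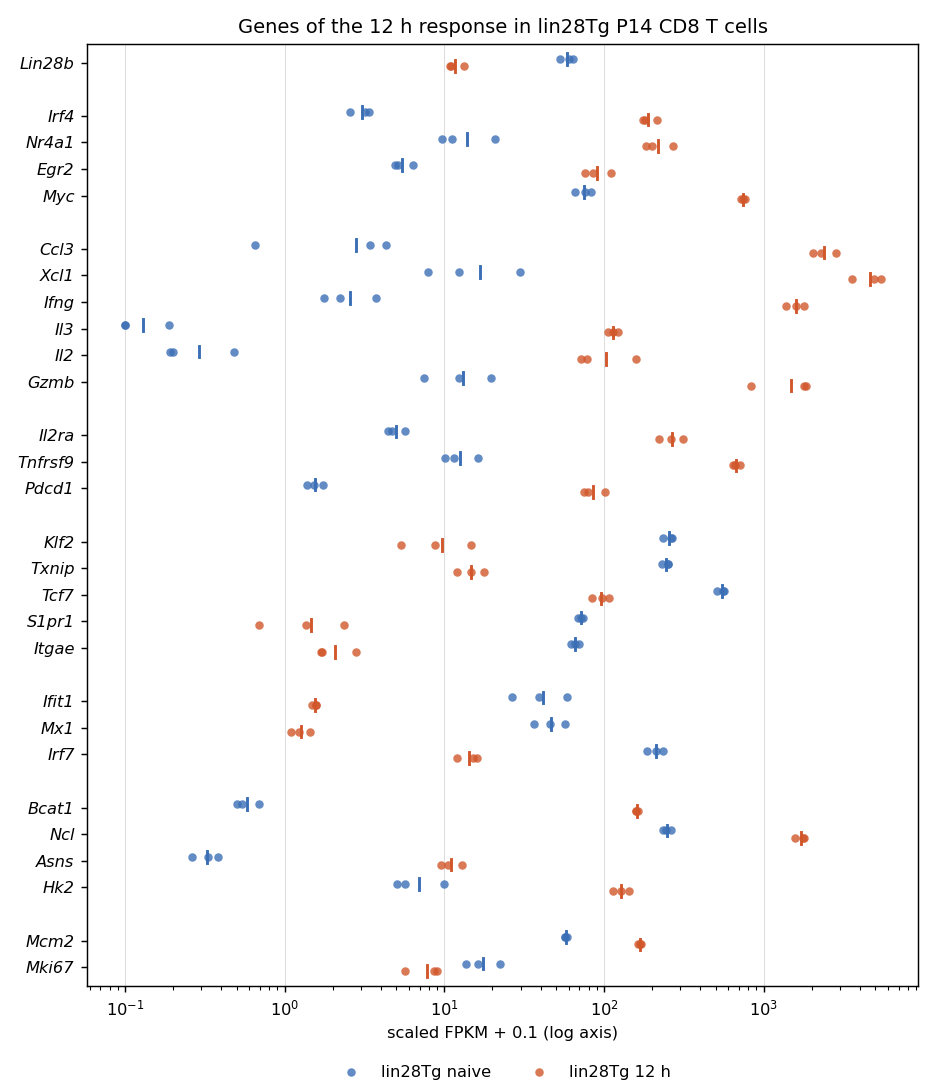
Scaled FPKM + 0.1 (log axis) of 28 genes in the 3 naive (blue) and 3 activated (orange) lin28Tg libraries, 1 point per library and a tick at the group mean. Ccl3, Xcl1 and Ifng rose by 8.27 to 9.80 log2 units, and S1pr1, Klf2 and Itgae fell, without overlap between the groups.

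Most receptors for activating and inhibitory signals rose. Of 12 costimulatory receptors tested, 8 rose and 4 fell, and of 14 inhibitory receptors and ligands 9 rose and 4 fell. Tnfrsf9, the costimulatory receptor 4-1BB, was at 10.05, 16.0 and 11.4 in naive and 642, 662 and 712 in 12 h cells (5.72 ± 0.17, adjusted p = 1.38e-13). Pdcd1, which codes for the inhibitory receptor PD-1, was at 1.43, 1.65 and 1.29 and 102, 79.5 and 74.99 (5.45 ± 0.21, adjusted p = 1.57e-12). The 12 h values of both genes lay far above the naive ones and varied little. Ctla4 rose by 5.30, Lag3 by 4.47 and Tigit by 4.29. Havcr2, which codes for Tim3, was at 1.09, 2.79 and 1.79 and 4.41, 3.37 and 3.32 and was not called (adjusted p = 0.111), although it was called higher in a fit to the 6 lin28Tg libraries alone and with the myeloid marker level as a term (adjusted p from 7.10e-05 to 0.319 over its alternatives).

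For cytokine receptors falls outnumbered rises, with 14 of 23 falling, 5 rising and a median of -1.03. The high-affinity IL-2 receptor chain Il2ra was the main exception, at 4.31, 5.60 and 4.62 in naive and 222, 261 and 311 in 12 h cells (5.63 ± 0.18, adjusted p = 3.03e-13). Il12rb2, a chain of the IL-12 receptor, rose by 3.05 with values of 29.4, 41.0 and 75.1 at 12 h. Il2rb rose by 0.34, a call lost without scaling (adjusted p from 0.0047 to 0.564 over its alternatives), and the shared chain Il2rg was at 236, 206 and 205 and 213, 208 and 194 (adjusted p = 0.537, adjusted p from 0.00506 to 0.963 over its alternatives). Il7r, the receptor of the survival cytokine IL-7, fell from 79.4, 60.8 and 79.4 to 5.92, 4.24 and 5.18 (-3.71 ± 0.67, adjusted p = 9.06e-05), Il6ra from 54.7, 46.2 and 54.3 to 3.41, 2.70 and 2.27 (-4.00), and Il18r1 by 2.87 on the log2 scale. Il7r with the myeloid marker level as a term changed by -1.12 and was not called (adjusted p from 6.30e-07 to 0.44 over its alternatives), nor was Il18r1 (adjusted p from 6.51e-08 to 0.0779 over its alternatives). Of 20 JAK, STAT and SOCS genes, 9 rose and 7 fell, and 6 and 6 with the myeloid marker level as a term. Stat5a, a transducer of IL-2 signals, went from 39.9, 36.4 and 37.1 to 177, 205 and 269.6 (2.49 ± 0.11, adjusted p = 8.15e-12), and Cish, a feedback inhibitor induced by STAT5, from 5.14, 4.63 and 3.88 to 39.1, 39.5 and 59.5 (3.18).

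Genes of the quiescent state fell. Of 22 quiescence and memory transcription factors and related genes, 15 fell and 4 rose, with a median of -1.16. Klf2, which keeps naive cells quiescent and recirculating (chr8:72319033-72321656), went from 267, 263 and 232 to 14.6, 5.27 and 8.65 (-4.77 ± 0.52, adjusted p = 3.45e-07). Tcf7, which codes for TCF-1, went from 566, 509 and 557 to 97.3, 83.5 and 108 (-2.50 ± 0.13, adjusted p = 4.94e-11) and its relative Lef1 from 74.7, 57.3 and 78.9 to 21.1, 16.9 and 16.3 (-1.92). All 12 h values of these 3 genes lay below all naive values. Txnip, an inhibitor of glucose uptake, fell by 4.03 on the log2 scale, from 249.7, 231 and 251 to 11.9, 17.5 and 14.6. Bach2 and Foxp1, repressors of effector programs, were among the 4 that rose, with Bach2 at 14.6, 11.9 and 13.995 and 75.2, 63.8 and 69.0 (2.32) and Foxp1 up by 1.402.

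Receptors for recirculation followed the same direction, with 11 of 18 homing and egress receptors falling and 4 rising (median -1.92). S1pr1, the receptor that lets T cells leave lymph nodes (chr3:115710433-115715072), went from 72.1, 69.0 and 73.9 to 2.24, 0.588 and 1.26 (-5.37 ± 0.59, adjusted p = 3.96e-07), and Itgae, the integrin CD103, from 65.4, 61.8 and 69.4 to 1.598, 1.61 and 2.70 (-4.77). Ccr9, a gut-homing receptor, fell from 31.6, 36.0 and 35.1 to 2.56, 2.30 and 3.25 (-3.45). Ccr7, a receptor for entry into lymph nodes, rose from 262, 291 and 248 to 375, 416 and 491 (0.67 ± 0.22, adjusted p = 0.00987), though not with the myeloid marker level as a term (adjusted p from 5.50e-04 to 0.409 over its alternatives). The adhesion receptor Cd44 rose by 2.49 and the early activation marker Cd69, which opposes egress, by 1.52. In the T cell receptor list 11 of 17 genes fell and 4 rose. The coreceptor gene Cd8a fell from 486, 424 and 442 to 133, 146 and 149 (-1.66), and Cd8b1 from 864, 787 and 742 to 112, 119 and 122 (-2.75). Cd5, a negative regulator of receptor signaling, rose from 91.7, 91.7 and 91.5 to 419, 417 and 396 (2.16).

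Interferon response genes fell nearly as a whole. Of 21 members tested, 20 fell and 0 rose, 19 of them at least 2-fold, and the median was -3.17. The antiviral gene Ifit1 (chr19:34640871-34650009) was at 58.1, 26.4 and 39.0 in naive and 1.48, 1.39 and 1.46 in 12 h cells (-4.35 ± 0.32, adjusted p = 3.24e-09). Mx1, a GTPase that blocks viruses, was at 57.1, 36.5 and 45.7 and 1.14, 1.34 and 0.992 (-4.81), and Irf7, the factor that amplifies interferon signals, at 233, 186 and 210.1 and 14.9, 15.8 and 11.8 (-3.85 ± 0.36, adjusted p = 6.61e-08). Isg15, a ubiquitin-like modifier, went from 109.8, 67.6 and 76.9 to 10.5, 18.003 and 13.6 (-2.55) and Rsad2, which codes for viperin, from 30.5, 13.5 and 20.1 to 1.24, 0.75 and 1.03 (-3.80). No naive value of these 5 genes overlapped with a 12 h value, although naive replicate 1 was above the other 2 in each of the genes. Of the 21, 15 were called lower and 0 higher with the myeloid marker level as a term. The remaining member, Gbp2, was not called (0.10, adjusted p = 0.695). The medians in WT and let-7Tg cells were -3.23 and -3.08, and no member's response was called different between lin28Tg and WT cells.

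Interferon-stimulated response elements are the sites where the ISGF3 complex and IRF factors bind, and stretches of 3 promoters are printed because these genes fell together. A pair of TTTC separated by 2 bases of any kind (GAAA on the other strand, both strands searched, overlaps allowed) was looked for in the 250 bases before each gene's start in RefSeq on GRCm38.p6. Of 21 members of the list 17 had a promoter in the table, and 8 of the 17 held a match, against 821 of 27025 promoters in all (3.04%). Matches in 3 of them are in capitals, read 5′ to 3′ on the gene's strand.
Isg15 (chr4:156200845-156200926, minus strand): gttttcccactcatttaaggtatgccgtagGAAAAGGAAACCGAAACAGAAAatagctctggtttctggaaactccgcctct
Ifit1 (chr19:34640755-34640843, plus strand): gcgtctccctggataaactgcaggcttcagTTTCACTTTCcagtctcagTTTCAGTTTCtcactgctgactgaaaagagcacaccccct
Rsad2 (chr12:26456533-26456602, minus strand): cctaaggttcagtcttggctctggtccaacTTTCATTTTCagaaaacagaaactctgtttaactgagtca
Isg15 held 3 overlapping matches that start 78, 72 and 66 bases before the gene's start, Ifit1 held 2 that start 104 and 85 bases before it, and Rsad2 held 1. A match describes the sequence and does not show binding.

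Most genes for building ribosomes, for translation and for folding and degrading proteins rose, whereas those of the ribosomal proteins moved little. All 40 of 40 ribosome biogenesis genes tested rose, 39 at least 2-fold, with a median of 2.005. Ncl, the nucleolar protein nucleolin (chr1:86344719-86359400), went from 262, 233 and 244 to 1565, 1798 and 1758 (2.79 ± 0.09, adjusted p = 4.19e-13), and Npm1, nucleophosmin, from 555, 506 and 513 to 3251, 3651 and 3681 (2.75). Polr1b, a subunit of RNA polymerase I, went from 37.8, 32.5 and 33.5 to 157, 164 and 167 (2.22 ± 0.09). The spread between the 3 libraries of a group was small beside these rises. Of 20 translation factors 17 rose and 1 fell (median 1.77), with Eif5a at 512, 560.3 and 498 and 2704, 2865 and 2900.2 (2.43) and the helicase gene Eif4a1 at 675, 682 and 632 and 2105, 2214 and 2306 (1.74). Among the genes of the ribosomal proteins themselves there were 13 of 32 rising and 1 falling with a median of 0.19. That direction rests on the scaling, since without scaling between libraries 9 rose, 7 fell and the median was -0.015, and with the myeloid marker level as a term 2 rose, 1 fell and the median was -0.061. Proteasome and chaperone genes rose in 28 of 28 cases (median 1.55). The mitochondrial chaperone Hspd1 went from 184, 160.5 and 168 to 1189, 1388 and 1381 (2.94 ± 0.14), the proteasome subunit Psmd1 from 48.3, 48.9 and 47.0 to 174, 187 and 196 (1.94), and Hsp90ab1 from 2568, 2327 and 2159.6 to 8063, 8835 and 9065 (1.88), the largest rise in mean scaled FPKM of any gene tested.

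Amino acid supply rose with them. Of 40 transporters, synthesis enzymes and tRNA synthetases tested, 32 rose and 3 fell, with a median of 1.66. Bcat1, which transfers the amino group of branched-chain amino acids (chr6:144993835-145076184), had the largest fold of the metabolic genes named here, from 0.591, 0.399 and 0.442 to 159, 158 and 164 (7.37 ± 0.14, adjusted p = 7.02e-15). The leucine transporter Slc7a5 went from 68.7, 64.7 and 61.4 to 381, 380.2 and 357 (2.51) and its partner Slc3a2 from 47.5, 49.9 and 46.2 to 139, 133 and 127 (1.46). In all 3 genes the 12 h libraries lay within a narrow range above the naive ones. Asns, asparagine synthetase and a target of the stress factor ATF4, was at 0.161, 0.283 and 0.23 and 9.47, 12.8 and 10.4 (3.97 ± 0.27, adjusted p = 1.05e-09), and the alanyl-tRNA synthetase gene Aars at 63.7, 69.5 and 59.8 and 236, 239 and 237 (1.88). Ddit4, an inhibitor of mTORC1, was one of the 3 that fell (-3.81). Of 22 one-carbon and nucleotide synthesis genes 19 rose and 1 fell (median 1.54), and the mitochondrial folate enzyme Mthfd2 of the amino acid list went from 64.4, 72.0 and 61.7 to 257, 287 and 282 (2.05).

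ATF4 pairs with C/EBP factors on a composite element whose letters TGATGNAA (TTNCATCA on the other strand) were searched in the same promoter windows. Of the 40 list members 31 had a promoter in the table, and 7 of the 31 held a match (Aars, Asns, Chac1, Gars, Pycr1, Slc7a11 and Tars), against 954 of 27025 in all (3.53%). Of these 7, Slc7a11, the cystine transporter, fell (-0.73, but 0.01 with the myeloid marker level as a term, adjusted p from 9.70e-04 to 0.986 over its alternatives) and the other 6 rose, by 1.39 to 3.97 log2 units. The promoter of Asns, which had the largest rise of the 7, is printed with its match in capitals, 23 bases before the start.
Asns (chr6:7693210-7693262, minus strand): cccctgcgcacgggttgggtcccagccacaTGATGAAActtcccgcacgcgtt

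Glycolysis, sterol synthesis and respiration rose to different degrees. Of 20 glycolysis and glucose uptake genes 15 rose and 4 fell (median 1.51). Hk2, the inducible hexokinase (chr6:82725025-82774454), went from 4.93, 9.89 and 5.58 to 114, 127 and 142 (4.19 ± 0.23, adjusted p = 7.53e-11), and Ldha, which makes lactate, from 669, 690.1 and 604 to 1879, 2168 and 2087 (1.64). The glucose transporter Slc2a1 rose by 1.48, Slc2a3 was at 30.1, 29.5 and 28.2 and 26.4, 27.2 and 22.9 (adjusted p = 0.0785, adjusted p from 0.00154 to 0.463 over its alternatives), and Pfkfb3, an activator of glycolysis, fell from 113, 138 and 113 to 61.7, 58.8 and 54.6 (-1.05). Pfkfb3 with the myeloid marker level as a term changed by -0.02 and was not called (adjusted p from 2.89e-05 to 0.946 over its alternatives). Of 30 cholesterol and fatty acid synthesis genes 22 rose and 5 fell (median 1.76). Sqle, squalene epoxidase of the sterol pathway, went from 4.41, 4.001 and 4.21 to 42.0, 50.6 and 53.1 (3.38 ± 0.24). The stearoyl-CoA desaturases Scd1 and Scd2 were among those that fell (-0.53 and -1.95). In the fit with the myeloid marker level 15 of the 30 rose and 5 fell, and neither Hmgcs1 (adjusted p from 2.73e-06 to 0.0803 over its alternatives) nor Scd1 (adjusted p from 8.23e-04 to 0.829 over its alternatives) was called. The sterol regulatory element TCACNCCAC (GTGGNGTGA on the other strand) was found in 1 of the 21 promoters of this list in the table, that of Hmgcs1, whose RNA went from 14.8, 14.1 and 15.1 to 47.6, 69.3 and 65.8 (1.999), and in 1.04% of all promoters.
Hmgcs1 (chr13:119690184-119690252, plus strand): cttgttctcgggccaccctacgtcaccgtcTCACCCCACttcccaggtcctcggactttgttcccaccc

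Nuclear genes of oxidative phosphorylation rose in 30 of 32 cases but by a median of 0.65, and 7 rose at least 2-fold. Cycs, cytochrome c, was the member with the largest rise, from 48.8, 52.1 and 48.4 to 191, 224 and 210.3 (2.05 ± 0.09, adjusted p = 7.99e-12). Genes read from the mitochondrial genome did not follow. Of 12 tested 6 fell and 0 rose (median -0.40), with mt-Co1 at 4436, 5543 and 4811 and 3197, 3263 and 3038 (-0.63 ± 0.11, adjusted p = 4.65e-05). With the myeloid marker level as a term, 15 of the 32 nuclear genes rose and 2 of the 12 mitochondrial genes fell, without mt-Co1 (adjusted p from 2.22e-07 to 0.0661 over its alternatives).

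**Figure D3:**
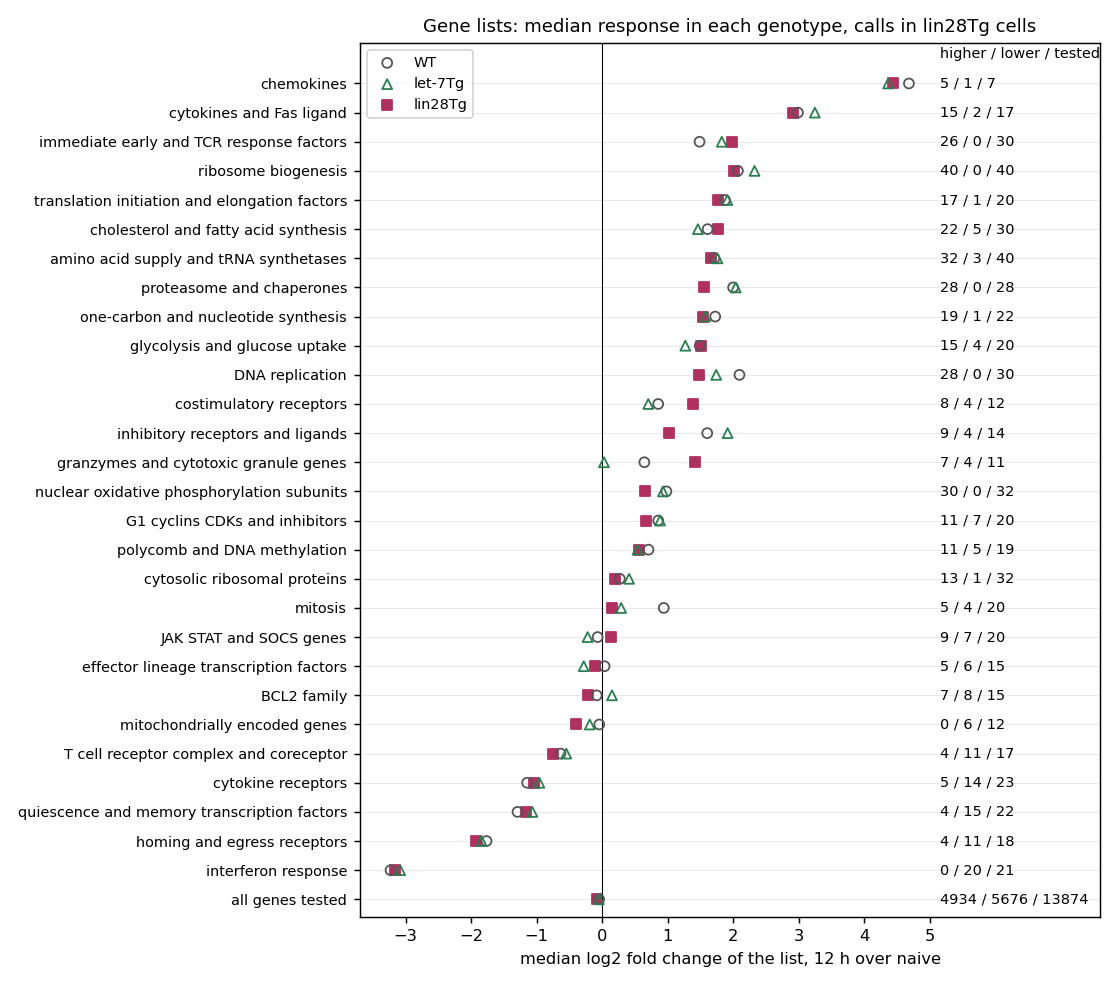
Median log2 fold change (12 h over naive, horizontal axis) of 28 gene lists and of all genes tested in lin28Tg (squares), WT (circles) and let-7Tg (triangles) cells, with the numbers of members higher, lower and tested in lin28Tg cells at the right. The interferon list lay at -3.17, -3.23 and -3.08 in lin28Tg, WT and let-7Tg cells, and the mitosis list at 0.15, 0.94 and 0.29.

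Cell cycle genes split between replication and division. Of 30 DNA replication genes 28 rose and 0 fell (median 1.48). Mcm2, a subunit of the replicative helicase (chr6:88883474-88898780), went from 56.9, 56.8 and 58.8 to 163, 170.3 and 168 (1.53 ± 0.15, adjusted p = 1.43e-07), and Pcna, the sliding clamp, from 246, 264 and 246 to 465, 574 and 558 (1.07). Of 20 mitosis genes 5 rose and 4 fell, with a median of 0.15, and this split rests on the scaling, with 2 rising, 5 falling and a median of -0.047 without it. Ccnb1, a mitotic cyclin, went from 5.57, 8.63 and 10.97 to 9.88, 18.03 and 15.2 (0.75, a call lost without scaling, adjusted p from 0.00118 to 0.0924 over its alternatives), while Ccnb2 went from 8.38, 13.5 and 17.5 to 1.5998, 3.14 and 2.36 (-2.23 ± 0.26, adjusted p = 9.59e-07) and Mki67, a marker of cycling cells, from 13.5, 16.2 and 22.1 to 5.57, 8.85 and 8.51 (-1.12 ± 0.25, adjusted p = 7.58e-04). Top2a, a topoisomerase of dividing cells, was at 76.2, 95.8 and 128 and 80.7, 144 and 139 (adjusted p = 0.426), with overlapping values. Among regulators of G1, 11 of 20 rose and 7 fell, with the kinase gene Cdk4 up from 125, 137 and 135 to 381, 396 and 391 (1.55). The kinase inhibitor gene Cdkn1b went from 40.5, 34.8 and 42.1 to 7.64, 6.17 and 8.57 (-2.32), and Cdkn2d from 55.2, 53.3 and 48.4 to 13.1, 13.2 and 13.9 (-1.92). With the myeloid marker level as a term 13 of the 30 replication genes rose, 2 mitosis genes rose and 2 fell, 6 regulators of G1 rose and 7 fell, and Mki67 changed by -0.12 and was not called (adjusted p from 6.19e-05 to 0.837 over its alternatives).

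Survival genes moved both ways, 7 of 15 BCL2 family genes rising and 8 falling. Bcl2l1, which codes for the survival protein Bcl-xL (chr2:152780668-152831728), went from 18.1, 25.3 and 16.4 to 262, 324 and 387 (3.995 ± 0.15, adjusted p = 1.71e-12). Bcl2 fell from 24.6, 17.2 and 17.4 to 14.2, 13.1 and 13.6 (-0.50, adjusted p = 0.0216), and Mcl1 from 278, 281 and 258 to 235, 228 and 235 (-0.22). Of the death genes, Bcl2l11, which codes for Bim, rose by 0.93, and Bbc3, which codes for Puma, fell from 64.2, 54.4 and 67.0 to 14.3, 12.1 and 9.70 (-2.33). The Bcl2a1 genes are near-identical copies between which reads may be split, and are uncertain singly. Bcl2a1d was at 16.4, 22.8 and 17.7 and 86.3, 98.6 and 89.2 (2.25). Among effector lineage factors 5 of 15 rose and 6 fell, with Tbx21, the T-bet gene, up from 17.2, 21.1 and 17.4 to 41.6, 45.6 and 62.3 (1.38), Eomes at 46.7, 37.3 and 38.5 and 40.4, 39.2 and 33.5 (adjusted p = 0.789), and Id2 at -1.10 (adjusted p = 0.0034). Of the BCL2 family 6 rose and 3 fell with the myeloid marker level as a term, and the median went from -0.23 to 0.58, and of the effector factors 6 rose and 3 fell. In that fit neither Mcl1 (adjusted p from 2.13e-05 to 0.216 over its alternatives) nor Bcl2l11 (adjusted p from 2.39e-06 to 0.0684 over its alternatives) nor Bcl2 was called, nor Id2, which had the opposite sign (0.55, adjusted p from 9.73e-04 to 0.257 over its alternatives), and Bcl2 was not called without naive replicate 1, 12 h replicate 2 or 12 h replicate 3 (adjusted p from 0.00265 to 0.276 over its alternatives). Among chromatin genes 11 of 19 rose and 5 fell, and Ezh2, the methyltransferase of polycomb, went from 31.2, 33.8 and 42.6 to 90.7, 128 and 139 (1.71 ± 0.16).

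By the size of the fold alone, the genes with the largest rises were Ccl3, Ifng, Ccl4, Xcl1, Rgs16, Il3, Zbtb32, Bcat1, Il2 and Crabp2. Rgs16, an inhibitor of chemokine receptor signaling, went from 0.181, 0.391 and 0.628 to 287, 229 and 200.2 (8.07), the repressor gene Zbtb32 from 0.791, 0.929 and 0.951 to 267, 270.3 and 244 (7.55), and Crabp2, which carries retinoic acid, from 0.0666, 0.1 and 0.142 to 69.0, 74.7 and 94.5 (7.04). Of the 10 with the largest falls, 7 were Cd209b, Marco, C1qa, C1qb, C1qc, Lyz2 and Cbr2, and C1qa, C1qb, C1qc and Lyz2 are on the myeloid marker list. Cd209b was not called by limma-voom (adjusted p from 5.60e-11 to 0.0715 over its alternatives). Marco, a scavenger receptor of macrophages, was at 7.93, 168 and 72.2 in naive and 0.754, 0 and 0.109 in 12 h cells (-6.01, adjusted p = 3.13e-06), and with the myeloid marker level as a term it was not called (-2.49, adjusted p from 1.17e-08 to 0.112 over its alternatives). Cbr2 was at 6.30, 75.2 and 28.8 in naive cells and had no read in the 3 libraries at 12 h, which makes it at least 432-fold lower against 3 reads over the group. In these 7 genes naive replicate 2 was highest and replicate 1 lowest, in the order of the summed myeloid markers. The other 3 were Ggt1, Cd7 and Cd163l1, in which naive replicate 1 or 2 was highest and the values varied less than 2-fold. Ggt1, gamma-glutamyltransferase, went from 111, 89.6 and 90.8 to 0.689, 0.658 and 0.216 (-6.61 ± 0.23, adjusted p = 4.66e-13), Cd7 from 179.9, 187 and 157 to 2.96, 0.97 and 1.27 (-6.39), and Cd163l1, a scavenger receptor family gene of γδ T cells, from 119, 79.5 and 77.7 to 1.52, 0.718 and 0.835 (-5.93). By the change in mean scaled FPKM, the largest falls were those of Tmsb4x, mt-Co1, Tmsb10, Actb and Trbd1. The thymosin gene Tmsb4x went from 3130.1, 4185 and 3258 to 1302, 1389.9 and 1106 (-1.47) and Tmsb10 from 2497, 2365 and 2123 to 526, 664 and 608 (-1.96).

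Most of the response was shared with the other genotypes. In WT cells 2403 genes rose at least 2-fold (17.3% of those tested) and 2690 fell (19.4%), and in let-7Tg cells 2261 rose (16.3%) and 2572 fell (18.5%). Of the genes that rose at least 2-fold, 1919 were the same in lin28Tg and WT cells, 88.3% of the lin28Tg and 79.9% of the WT genes, and of those that fell 2238, 73.9% and 83.2%. With let-7Tg cells 1801 rises were shared, 82.9% and 79.7%, and 2094 falls, 69.1% and 81.4%. The genotypes shared no library in these comparisons. Between lin28Tg and WT cells 1 gene rose at least 2-fold in lin28Tg cells and fell at least 2-fold in WT cells, and 1 the other way. Across genes, which are not independent replicates, the log2 fold changes of lin28Tg and WT cells had a Pearson r of 0.92. Myc is an example, with a log2 fold change of 3.31 in lin28Tg, 3.28 in WT and 3.36 in let-7Tg cells and a difference between lin28Tg and WT of 0.03 ± 0.14.

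The difference in response between lin28Tg and WT cells, tested as the interaction of genotype and time, was called in 1062 genes (7.65%). In 328 (2.36%) the log2 fold change was more positive in lin28Tg cells, 89 of them by at least 2-fold (0.641%), and in 734 (5.29%) more negative, 430 by at least 2-fold (3.1%). These counts moved with single libraries and with the fit: leaving out 1 library gave 181 to 402 and 310 to 1117, limma-voom 123 and 152, and the myeloid marker level as a term 114 and 132. Of the 734, 659 were already higher in naive lin28Tg than in naive WT cells (19.5% of all genes were) and 71 were lower at 12 h (4.49%). Of the 328, 197 were lower in naive lin28Tg cells (12.6%) and 137 were higher at 12 h (6.19%). The difference in response is the 12 h difference between the genotypes minus the naive one. These splits therefore follow in part from the selection and are no separate evidence. Against let-7Tg cells the difference was called in 2264 genes (16.3%), 895 more positive (6.45%) and 1369 more negative (9.87%), which were 311 and 357 with the myeloid marker level as a term. The lin28Tg libraries enter both comparisons. Sex-linked genes moved between the stages in WT and let-7Tg cells, and the part of sex in these differences was not tested.

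**Figure D4:**
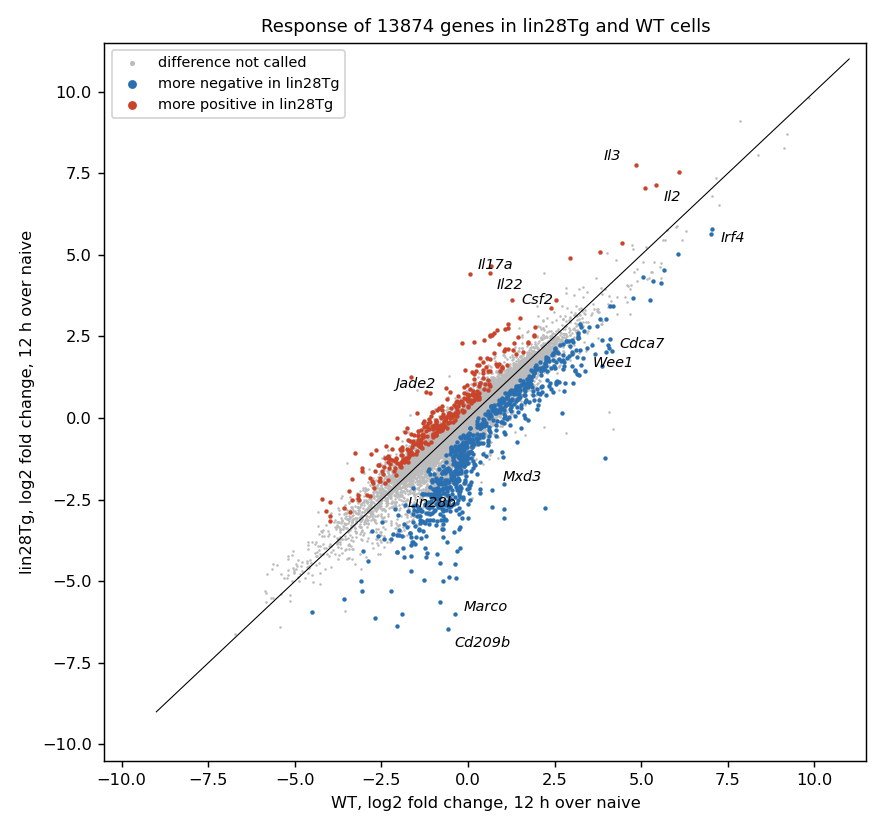
Log2 fold change (12 h over naive) of 13874 genes in WT cells (horizontal) and lin28Tg cells (vertical), with genes whose difference was called in red (more positive in lin28Tg, 328 genes) and blue (more negative, 734 genes) and a line of equality. Il17a and Il22 stand above the line near 0 in WT cells, and Cd209b and Marco below it.

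Among genes whose response was more positive in lin28Tg cells, 3 cytokine genes were induced there and hardly elsewhere. Il17a, the cytokine of type 17 T cells (chr1:20730905-20734496), had no read in the 3 naive lin28Tg libraries and stood at 6.998, 9.99 and 14.6 at 12 h, at least 255-fold higher against 3 reads over the group. In WT cells it was at 0.0512, 0 and 0 and 0.0668, 0.0548 and 0, and in let-7Tg cells at 0, 0 and 0 and 0.117, 0 and 0. The difference in response to WT was 4.34 ± 0.26 (adjusted p = 2.06e-07). Il17f was at 0.199, 0.448 and 0.354 in naive and 13.3, 17.9 and 35.8 in 12 h lin28Tg cells against 1.67, 0.402 and 0.449 in WT cells at 12 h (difference 4.01 ± 0.51, adjusted p = 6.53e-04). Il22, another cytokine of that program, was at 0, 0.287 and 0 and 6.42, 12.5 and 22.5 against 0.705, 0.173 and 0.0646 in WT cells at 12 h (difference 3.83 ± 0.48, adjusted p = 6.53e-04). In all 3 genes replicate 3 was highest and replicate 1 lowest at 12 h, and each of the lin28Tg values exceeded all values of the other genotypes. A limma-voom fit to the recovered reads kept the call of Il17a (adjusted p from 1.82e-07 to 0.0102 over its alternatives) and not those of Il17f (4.71, adjusted p from 2.29e-04 to 0.085 over its alternatives) and Il22 (4.60, adjusted p from 6.70e-05 to 0.285 over its alternatives). By its values Il17a passed the filter on low values only through the 12 h lin28Tg libraries, so its test depends on that group. Its range covers 20 alternatives, against 23 for Il17f and Il22. The 12 h levels themselves differed from WT by 4.29 ± 0.18, 4.09 ± 0.36 and 4.05 ± 0.34 log2 units (adjusted p = 6.18e-10, 5.18e-06 and 3.60e-06).

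A list of 12 genes of the type 17 program was written after these values were seen, so that its direction between genotypes is no independent evidence. Of these 4 rose, the cytokines and Ahr, a ligand-activated factor (0.75, adjusted p from 1.08e-04 to 0.0955 over its alternatives), and 7 fell. In naive cells 8 of the 12 were already higher in lin28Tg than in WT cells (19.5% of all genes were), by a list median of 1.64. At 12 h 8 were higher (6.19% of all genes), by a list median of 1.17. With the myeloid marker level as a term 5 rose and 2 fell. The chemokine receptor Ccr6 was at 8.38, 9.40 and 12.1 in naive lin28Tg and 1.88, 0.329 and 0.563 in naive WT cells and fell to 1.26, 2.31 and 3.50 (-1.94), a call lost with the myeloid marker level as a term (-0.85, adjusted p from 2.08e-05 to 0.319 over its alternatives), and the IL-17 receptor family gene Il17re went from 3.52, 3.58 and 3.79 to 0.323, 0.337 and 0.553 (-2.20). Maf was at 4.31, 17.5 and 9.88 and 0.57, 0.903 and 0.759 (-2.97, adjusted p from 1.74e-07 to 0.197 over its alternatives), with naive replicate 2 highest as for the myeloid markers. These 3 genes were thus higher in naive lin28Tg than in naive WT libraries and lower after 12 h, as was Cd163l1. Whether these reads came from the P14 cells was not tested.

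Il3, Il2 and Csf2 rose in every genotype and reached the highest levels in lin28Tg cells. At 12 h Il3 was at 113, 106 and 121 in lin28Tg, 10.5, 29.8 and 10.2 in WT and 15.1, 38.4 and 28.2 in let-7Tg cells, and the difference in response to WT was 2.91 ± 0.48 (adjusted p = 0.00412). Il2 was at 20.5, 29.3 and 25.1 in WT and 12.02, 28.5 and 38.3 in let-7Tg cells (difference to WT 1.72 ± 0.50, adjusted p = 0.0485), and Csf2 at 0.881, 0.802 and 0.628 and 0.602, 2.26 and 0.768 (difference to WT 2.34 ± 0.41, adjusted p = 0.00634). All lin28Tg values of the 3 genes at 12 h lay above all values of the other genotypes, and the 12 h levels differed from WT by 2.90 ± 0.34 for Il3, 1.94 ± 0.36 for Il2 and 2.93 ± 0.29 for Csf2 (adjusted p = 4.44e-05, 0.00214 and 1.55e-05). The difference in response, which also rests on naive values near 0, was less stable. That of Il2 was not called in 16 of 23 alternatives (adjusted p from 0.0265 to 0.907 over its alternatives), that of Csf2 in 2 of 23 (adjusted p from 6.37e-04 to 0.596 over its alternatives) and that of Il3 in 1 of 23 (adjusted p from 1.66e-04 to 0.422 over its alternatives). Of the 17 cytokine genes tested, 4 were called more positive than in WT cells, the fourth being Tnfsf4, which was not called in 14 of 23 alternatives (adjusted p from 0.0119 to 0.951 over its alternatives) and was negative in the limma-voom fit (-0.15), and 0 more negative, where 2.36% and 5.29% of all genes were. By limma-voom 0 of the 17 were called more positive, and with a pseudocount of 0.1 FPKM 1 was. Ifng was higher at 12 h in lin28Tg than in WT cells, at 1375, 1794 and 1584 against 250.2, 317 and 189.7, but the difference in response was not called (1.25 ± 0.63, adjusted p = 0.242), except with the myeloid marker level as a term, where it was 2.62 (adjusted p from 0.0329 to 0.965 over its alternatives). Against let-7Tg cells it was (2.46, adjusted p = 0.0156), but not in 2 of 23 alternatives (adjusted p from 0.00147 to 0.518 over its alternatives).

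In the JAK, STAT and SOCS list 4 of 20 genes were called more positive than in WT cells (Stat5a, Stat5b, Socs3 and Pim3) and 0 more negative, against the same 2.36% and 5.29% of all genes. Stat5a reached 177, 205 and 269.6 in lin28Tg, 115.4, 128 and 115.03 in WT and 79.9, 75.6 and 70.3 in let-7Tg cells (difference to WT 1.06 ± 0.16, adjusted p = 0.00226). Stat5b, its close homologue, was at 46.2, 45.9 and 45.1 and 43.4, 48.3 and 60.5 in lin28Tg cells (adjusted p = 0.227, called higher without 12 h replicate 1, adjusted p from 0.019 to 0.894 over its alternatives) but fell in WT cells from 58.8, 63.6 and 67.9 to 37.1, 36.7 and 39.6 (difference 0.87 ± 0.14, adjusted p = 0.00395). The 3 lin28Tg libraries at 12 h were above the 3 WT libraries in both genes. Prf1 had a log2 fold change of 2.25 in lin28Tg, 0.90 in WT and 0.03 in let-7Tg cells (difference to WT 1.35 ± 0.34, adjusted p = 0.0258), a difference not called in 7 of 23 alternatives (adjusted p from 0.0031 to 0.0608 over its alternatives), each of which leaves out 1 library. Jade2, a chromatin reader, moved in opposite directions, from 24.6, 20.2 and 21.2 to 35.2, 41.2 and 39.0 in lin28Tg and from 34.3, 33.3 and 34.3 to 23.1, 21.7 and 25.6 in WT cells (difference 1.32 ± 0.11, adjusted p = 1.28e-05).

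Klf3 and Foxo1 of the quiescence list fell less in lin28Tg than in WT cells, starting from lower naive levels. Klf3 was at 58.5, 55.2 and 63.7 in naive lin28Tg and 87.0, 83.8 and 88.4 in naive WT cells, and at 11.4, 11.03 and 10.8 and 10.6, 11.6 and 10.7 at 12 h (difference in response 0.56 ± 0.12, adjusted p = 0.0121). Foxo1, which maintains naive cells, was at 31.0, 27.4 and 30.3 in naive lin28Tg and 43.4, 45.5 and 46.9 in naive WT cells, and at 10.9, 11.1 and 12.3 and 12.5, 9.94 and 11.9 at 12 h (difference 0.61, adjusted p = 0.0312). Both genes thus started lower in lin28Tg cells and ended near the WT level. The difference in response was not called in 2 of 23 alternatives for Klf3 (adjusted p from 0.00798 to 0.125 over its alternatives) and 6 of 23 for Foxo1 (adjusted p from 0.0166 to 0.301 over its alternatives). Of the 22 genes of the list 4 were called more positive and 1, Rgs10, more negative, against 2.36% and 5.29% of all genes. The 4 were 2 with a replicate block and 2 without naive lin28Tg replicate 2. They were 1 with the myeloid marker level as a term and 5 without scaling. Cdkn2d ended higher in lin28Tg cells, at 13.1, 13.2 and 13.9 against 7.70, 7.63 and 7.23 (difference 0.86 ± 0.12, adjusted p = 9.67e-04).

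The genes whose response was more negative in lin28Tg cells had mostly been higher before activation, which follows in part from how they were selected. Cdca7, a gene of the MYC and E2F programs (chr2:72476159-72486893), was at 49.6, 53.3 and 59.5 in naive lin28Tg against 14.2, 14.4 and 13.2 in naive WT cells, and at 217, 221 and 236 against 260.1, 234 and 278 at 12 h (difference in response -2.11 ± 0.15, adjusted p = 1.47e-06). Wee1, a kinase that restrains entry into mitosis, was at 6.65, 7.64 and 7.66 against 1.27, 0.971 and 0.935 in naive cells and at 20.4, 20.2 and 21.5 against 15.4, 14.4 and 17.2 at 12 h (difference -1.94 ± 0.22, adjusted p = 3.27e-04). In both genes the naive values did not overlap between the genotypes, and the 12 h values differed far less. Mxd3, a MYC antagonist of cycling cells, was at 7.53, 10.5 and 12.8 in naive lin28Tg and 1.10, 0.215 and 0.376 in naive WT cells and fell to 1.44, 2.14 and 1.85 (difference -2.88 ± 0.36, adjusted p = 6.53e-04). Irf4 also started higher and rose by 5.78 in lin28Tg against 7.04 in WT cells (difference -1.25, adjusted p = 0.00131), and Il2ra by 5.63 against 7.01 (difference -1.39, adjusted p = 0.00819, adjusted p from 0.00277 to 0.0799 over its alternatives).

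DNA replication and mitosis genes showed the same order as groups. In naive cells 25 of 30 replication genes and 20 of 20 mitosis genes stood higher in lin28Tg cells than in WT cells (19.5% of all genes tested were), with medians of 1.02 and 3.15 log2 units. At 12 h 14 and 19 were still higher (6.19% of all genes were), with medians of 0.54 and 2.09. Top2a was at 76.2, 95.8 and 128 in naive lin28Tg and 7.39, 5.75 and 4.88 in naive WT cells, and at 80.7, 144 and 139 and 26.5, 17.1 and 33.8 at 12 h, so that it rose in WT cells and was not called in lin28Tg cells (difference -1.72 ± 0.42, adjusted p = 0.0225), with the difference not called in 8 of 23 alternatives (adjusted p from 0.0116 to 0.0904 over its alternatives). The response of 5 replication and 5 mitosis genes was called more negative than in WT cells and of 0 more positive (5.29% and 2.36% of all genes). Without naive lin28Tg replicate 2, the library richest in myeloid RNA, 0 replication and 2 mitosis genes were called, and with the myeloid marker level as a term 3 and 0.

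**Figure D5:**
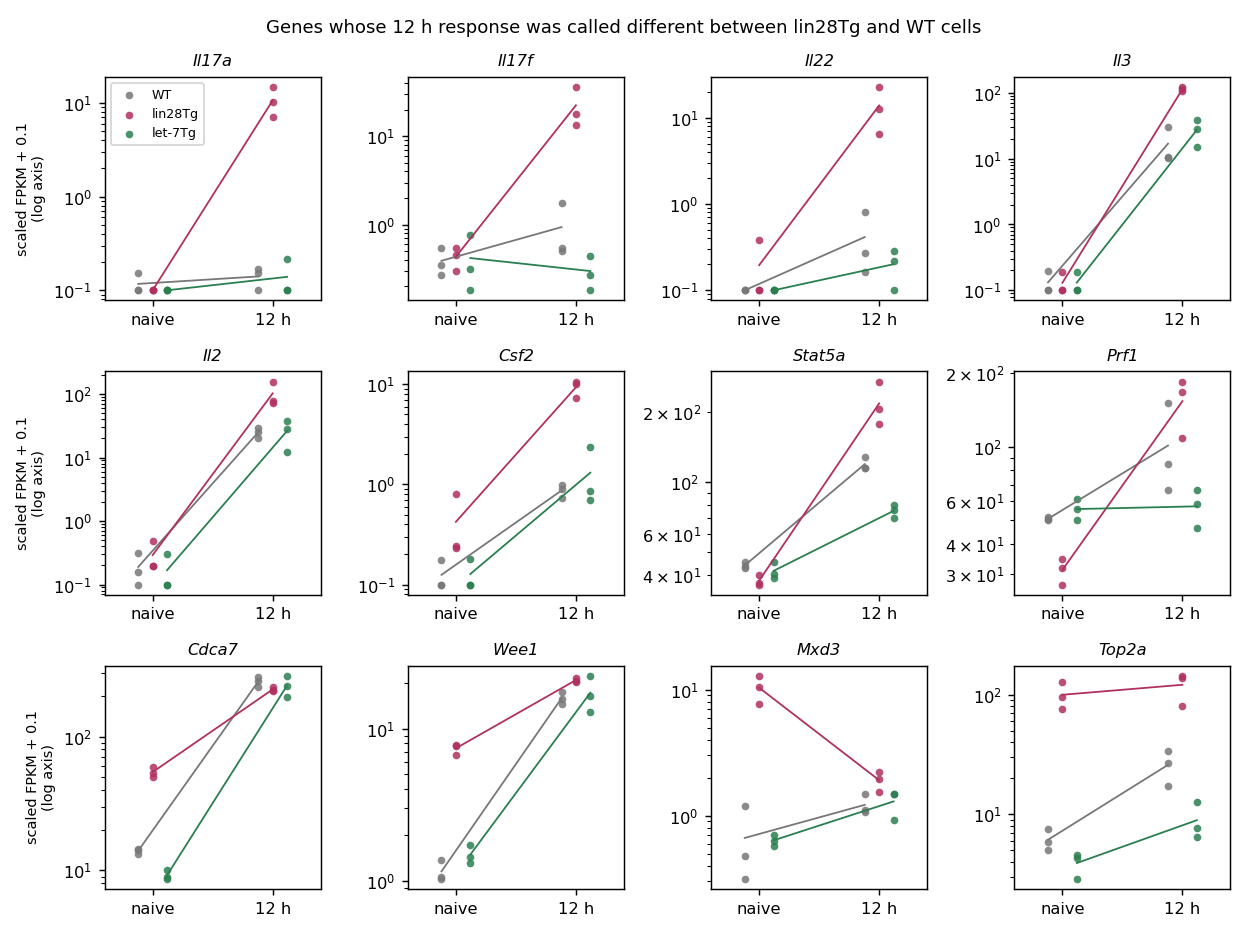
Scaled FPKM + 0.1 (log axes) of 12 genes whose response was called different between lin28Tg and WT cells, in naive and 12 h libraries of WT (grey), lin28Tg (magenta) and let-7Tg (green) cells, with lines between group means. Il17a, Il17f and Il22 rose in lin28Tg libraries. Cdca7 and Wee1 differed between lin28Tg and WT cells mainly before activation, and Top2a differed at both stages.

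The let-7 targets of the study were followed through activation. The list holds 38 genes that the study chose on libraries of the same series, as lowered by let-7 and bearing a predicted site, so that its direction between genotypes is no independent evidence. In lin28Tg cells 21 rose, 10 fell and the median was 0.56, against 0.57 in WT and 0.19 in let-7Tg cells, and with the myeloid marker level as a term 16 rose and 6 fell. In naive cells 27 of the 38 were higher in lin28Tg than in WT cells and 0 lower, against 19.5% and 12.6% of all genes, and at 12 h 22 and 0 (6.19% and 4.49% of all genes). Hmga1, an architectural chromatin protein, was at 133, 136 and 124 in naive and 467, 463 and 447 in 12 h lin28Tg cells, against 69.7, 73.0 and 81.9 and 284, 266 and 291 in WT cells, so that the 2 genotypes rose in parallel (difference in response -0.10 ± 0.13, adjusted p = 0.713). Arid3a, a DNA-binding factor, was at 6.55, 8.11 and 7.38 and 9.30, 10.99 and 12.1 in lin28Tg cells against 2.87, 2.26 and 3.07 and 2.96, 2.86 and 3.36 in WT cells. Cdc34, a ubiquitin-conjugating enzyme, was at 92.1, 99.4 and 83.0 and 253, 260.4 and 244 against 45.6, 49.0 and 49.99 and 147, 145 and 153. All lin28Tg values of these 3 genes lay above the WT values of the same stage. The difference in response was called for 2 members as more positive, Arid3b and Cbx2, and for 3 as more negative, Hk2, Nme4 and Nupr1, where 2.36% and 5.29% of all genes were called. Arid3b fell from 45.1, 42.4 and 43.5 to 31.4, 28.1 and 29.2 in lin28Tg cells and from 34.9, 40.5 and 41.6 to 15.2, 15.9 and 15.1 in WT cells (difference 0.75 ± 0.12, adjusted p = 0.00267), and the polycomb gene Cbx2 was at 11.46, 10.2 and 12.8 and 10.5, 12.9 and 11.2 against 8.71, 10.01 and 10.7 and 6.03, 4.75 and 5.78 (difference 0.78, adjusted p = 0.0258, not called in 6 of 23 alternatives, adjusted p from 0.0211 to 0.142 over its alternatives).

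Of 15 tested genes of Lin28b and microRNA processing, 8 rose and 5 fell, and 5 and 5 with the myeloid marker level as a term. Drosha, the nuclease that cuts primary microRNAs, was at 23.1, 24.3 and 21.9 in naive and 51.0, 51.5 and 53.8 in 12 h lin28Tg cells (1.16, adjusted p = 1.57e-08), and Dicer1, which cuts the precursor hairpin, at 14.2, 12.2 and 14.1 and 16.8, 17.8 and 18.2 (0.38, adjusted p = 3.57e-04, a call lost with the myeloid marker level as a term, adjusted p from 9.31e-05 to 0.242 over its alternatives). Tut4, a uridylyltransferase that LIN28 recruits to the let-7 precursor, was at 74.7, 51.9 and 68.0 and 40.9, 42.0 and 39.8 (-0.64, adjusted p = 1.25e-04). The response of Drosha and Tut4 was not called different from that of WT cells (0.03 ± 0.14 and 0.06 ± 0.17), and that of Dicer1 was at the threshold (0.37 ± 0.11, adjusted p = 0.0491) and not called in 16 of 23 alternatives (adjusted p from 0.0256 to 0.273 over its alternatives).

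Sites that pair with the shared seed were looked for in the 3′ UTRs of the GENCODE M21 annotation on GRCm38 as the letters CTACCTCA, which are the complement of seed positions 2 to 8 followed by A, on the transcript's strand. The sites of 4 list genes with values given here are printed with 11 bases on each side and the match in capitals.
Cdc34 (chr10:79688116-79688145, plus strand): caggcgacagaCTACCTCAccgaggttcca
Arid3a (chr10:79953899-79953928, plus strand): caagtttctttCTACCTCAggtcttttgat
Bcl2l1 (chr2:152781180-152781209, minus strand): caggggcttccCTACCTCAggcaggaaggg
Ccr7 (chr11:99144774-99144803, minus strand): cccacttataaCTACCTCAaccaaagctgt
Of 12290 tested genes with a 3′ UTR, 443 held at least 1 site. Their median log2 fold change from naive to 12 h in lin28Tg cells was -0.078, against -0.045 for the 11847 genes without a site, and the median difference to the WT response was -0.044 in both sets. In naive cells 25.3% of genes with a site and 21.1% of those without were higher in lin28Tg than in WT cells, and 9.48% and 12.8% lower. At 12 h 54 of the 443 and 778 of the 11847 were higher and 12 and 535 lower, and the response was called more positive than in WT cells in 4.06% and 2.41% and more negative in 4.97% and 5.76%. The 443 genes with a site were counted over genes and not tested as a set.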

How the data were processed

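RNA of naive, 12 h activated and day 5 P14 CD8 T cells was sequenced, and the 18 naive and 12 h libraries of 3 genotypes were analysed here. Per the labels, the authors aligned reads with TopHat2 (version 2.0.9) and Bowtie2 (version 2.0.6) to GRCm38, counted them per gene with HTSeq (version 0.6.1) and deposited FPKM values, 1 column per library. Columns of the authors' own comparisons in the deposited tables hold fold changes and p values and were not used. Strandedness of counting is not given in the sources used here, so that reads of overlapping genes cannot be told apart.

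Because FPKM is a linear function of reads for each gene, whole reads were recovered from the steps of the values, and 100.0% of 308528 values above 0 came out whole within 0.001 of a read. Depth was 13862655 to 23590750 counted reads per library, at which 10 reads on a gene of 2 kb equal 0.212 to 0.361 FPKM. Differences in RNA composition were scaled out of the FPKM by trimmed means (TMM, 30% and 5% trimmed), genes were filtered to 13874, and log2(scaled FPKM + 0.5) was fitted with limma (version 3.58.1, R 4.3.3, trended variance, 12 residual degrees of freedom) with 1 mean per genotype and stage. Responses and their differences between genotypes were contrasts of that fit, adjusted by Benjamini-Hochberg over all genes, with a threshold of 0.05 and a second rule of at least 2-fold. The fit was tested on simulated data in which few genes changed, and only in lin28Tg 12 h cells. That test does not cover a change of most genes or RNA of other cells. Bounds against groups with no read use a floor of 3 reads over the group, and the interval of a read ratio covers counting error only.

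Genes were named as follows: Lin28b and genes the study names for these stages, the 10 largest log2 fold changes in each direction among called genes without overlap and with at least 10 FPKM, the 5 largest changes of mean level in each direction, the 8 smallest adjusted p in each direction for the difference from WT and the 4 from let-7Tg cells with at least 5 FPKM, and members of 40 gene lists by role. The comparison and the lists were chosen with earlier results of these data known, and the type 17 genes were added after their values were seen. Alternatives were other scaling, pseudocounts of 0.1 and 1, other filters, a replicate block, only the libraries compared, limma-voom on the recovered reads, each library left out and, chosen after seeing the data, the myeloid marker level as a covariate. Tables were made with Python 3.11.15 and pandas 2.3.3. Some members of the lists are not reported here by name.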

Additional observations from a re-analysis of the deposited data

Results flagged for a closer look

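The response to activation differed between lin28Tg and WT cells, by the interaction term of the limma fit, in 16 genes that had the smallest adjusted p in their direction. Values are differences of log2 fold changes, lin28Tg minus WT. Among cytokine genes they were 4.34 for Il17a, 4.01 for Il17f and 3.83 for Il22, where the lin28Tg libraries at 12 h stood above all others.

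Jade2 (1.32) moved in opposite directions in lin28Tg and WT cells. Mpzl3 (1.02), an immunoglobulin superfamily gene, went from 6.06, 5.62 and 4.89 to 15.1, 18.4 and 14.96 in lin28Tg cells and from 6.34, 5.76 and 5.96 to 8.35, 9.01 and 7.78 in WT cells, so that the naive values overlapped and the 12 h values did not. Cdkn2d (0.86) fell less in lin28Tg cells. Lrrc75b (1.72) was at 2.20, 2.49 and 2.70 in naive lin28Tg and 10.9, 8.51 and 8.71 in naive WT cells and near 0 in both at 12 h. The noncoding gene A530021J07Rik (2.21) was at 0.511, 0.576 and 0.546 and 3.19, 6.01 and 4.22 in naive cells and had no read at 12 h in either genotype, so that the difference in its response is a difference between naive levels.

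Of the genes with a more negative response, Lin28b (-2.33) is the transgene, with WT values near 0 at both stages. Cdca7 (-2.11), Wee1 (-1.94), Tspan4 (-1.54) and AI662270 (-0.74) rose in both genotypes from a higher naive level in lin28Tg cells. The tetraspanin gene Tspan4 was at 27.996, 29.6 and 28.1 in naive lin28Tg and 7.62, 7.58 and 8.87 in naive WT cells, and at 47.9, 48.3 and 45.5 and 41.0, 40.7 and 38.3 at 12 h. Mxd3 (-2.88) and Stac2 (-2.39) fell in lin28Tg cells. Stac2 went from 12.3, 9.52 and 10.5 to 0.592, 0.565 and 0.174 there, with 0.733, 0.748 and 1.05 in naive WT cells. Ptger2 (-1.68), a receptor for prostaglandin E2, rose from 1.26, 1.58 and 1.69 to 11.8, 9.29 and 9.68 in lin28Tg and from 0.911, 0.566 and 0.766 to 19.2, 20.8 and 22.4 in WT cells, ending lower in every lin28Tg library. The rise of Tspan4 in lin28Tg cells was not called with the myeloid marker level as a term (adjusted p from 3.05e-06 to 0.1 over its alternatives). By limma-voom the differences of Lin28b (adjusted p from 2.81e-07 to 0.146 over its alternatives), A530021J07Rik (adjusted p from 5.42e-05 to 0.0835 over its alternatives), Lrrc75b (adjusted p from 2.99e-04 to 0.351 over its alternatives) and Stac2 (adjusted p from 1.35e-05 to 0.314 over its alternatives) were not called, nor were those of Il17f (adjusted p from 2.29e-04 to 0.085 over its alternatives) and Il22 (adjusted p from 6.70e-05 to 0.285 over its alternatives).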

How the results depend on the processing

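The counts of genes that rose (4934), and that rose or fell at least 2-fold (2173 and 3029), stayed within 1.5 times under every alternative, and the 5676 that fell were 3346 with the myeloid marker level as a covariate. Of the called genes 46.5% rose, 39% without scaling, 40.9% with upper quartile scaling and 50.7% with that covariate. Differences in response were less stable. More positive than in WT cells were 328 genes, but 210 with a pseudocount of 0.1, 123 by limma-voom and 114 with the covariate, and more negative 734, but 442, 152 and 132. Leaving out 1 library gave 181 to 402 and 310 to 1117. The first count fell by over 1.5 times without WT naive replicate 3 (181), lin28Tg naive replicates 2 and 3 (197 and 206) or lin28Tg 12 h replicate 3 (211). The second was 1117 without lin28Tg naive replicate 1, and fell by over 1.5 times without WT naive replicates 2 and 3 (345 and 310), lin28Tg naive replicates 2 and 3 (358 and 344), WT 12 h replicates 1 and 3 (399 and 408) or lin28Tg 12 h replicates 1, 2 and 3 (419, 471 and 327). Against let-7Tg cells the 895 more positive genes were 311 with the covariate and 643 to 1095 without 1 library, and the 1369 more negative 635 by limma-voom, 357 with the covariate and 798 to 1526 without 1 library (839 without lin28Tg naive replicate 2, 798 without lin28Tg 12 h replicate 3). The cause was not tested. Over 211 named values and 3872 alternatives, 124 lost and 16 gained the call and 3 reversed, namely Id2 (0.546) and Slc7a11 (0.009) with the covariate and the difference of Tnfsf4 by limma-voom (-0.148). Correlations of same-numbered naive and 12 h libraries ran from -0.138 to 0.179, and those of differently numbered ones from -0.149 to 0.185. With so few libraries a group these values cannot settle whether replicate numbers pair the samples. With a replicate block 201 genes were more positive and 473 more negative than in WT cells, and the other counts stayed within 1.5 times. Depth limited values near 0, such as that of Il3 in naive cells, which rests on 1 read.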

Other observations

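Further genes that the study names for these stages behaved as follows. Bhlhe40, a repressor induced by activation, went from 10.6, 22.9 and 12.9 in naive to 120.2, 156 and 192 in 12 h lin28Tg cells (3.35 ± 0.33, adjusted p = 1.20e-07), and was above the WT values of 6.82, 3.78 and 3.57 and 71.5, 79.1 and 53.9 at both stages. Rbpj, the DNA-binding partner of Notch, went from 13.7, 14.3 and 13.5 to 119, 128 and 138 (3.16 ± 0.12, adjusted p = 1.37e-12). Notch2 itself was at 12.5, 13.96 and 13.9 and 13.9, 15.4 and 18.6 (0.23, adjusted p = 0.0848, adjusted p from 0.0176 to 0.813 over its alternatives), with groups that overlapped. The difference from the WT response was not called for any of the 3.

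Il4ra, the receptor chain for IL-4, was not called in lin28Tg cells, at 49.4, 45.2 and 40.7 and 46.7, 46.8 and 49.1 (0.08, adjusted p = 0.427), and fell in WT cells from 63.8, 58.9 and 65.1 to 42.0, 37.8 and 44.3 (difference 0.67 ± 0.12, adjusted p = 0.00792, adjusted p from 0.00212 to 0.071 over its alternatives). Slc16a10, a transporter of aromatic amino acids, was already at 19.0, 18.3 and 19.2 in naive lin28Tg cells, against 9.09, 8.26 and 9.17 in WT cells, and at 23.9, 22.8 and 18.3 against 26.0, 22.2 and 26.6 at 12 h (difference -1.25 ± 0.28, adjusted p = 0.0159). Naive lin28Tg values of both genes lay apart from all naive WT values, below them for Il4ra and above them for Slc16a10, and the 12 h values lay closer together.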
